A study of Mus musculus with 70 samples.

Results

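A set of 40 genes of DNA replication and mitosis was followed through every library of a mouse brain expression series. The 40 members were taken by name from the 34677 genes of the gene-level TPM table, and all 40 passed the filter on low counts and were among the 19980 genes tested. TPM, the usual unit of transcript abundance, is a level corrected for transcript length and scaled within a library, so it allows levels of different genes to be set side by side. The rule names genes and uses no measured value.

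A cell that divides copies its DNA in S phase and separates the copies in mitosis. Before S phase the loading factors Cdc6 and Cdt1 place the ring-shaped helicase Mcm2 to Mcm7 on origins of replication, a step called licensing. Cdc45, the GINS complex (Gins1 and Gins2 among its subunits), the sliding clamp Pcna and the polymerases then form the moving fork, with deoxynucleotides supplied by Rrm1, Rrm2 and Tyms. Cyclin-dependent kinases paired with cyclins E and A drive entry into S phase, and Cdk1 with cyclin B drives mitosis. Aurora, Polo-like and Bub1 kinases, motor proteins and Cdc20 then steer the chromosomes and their separation. Neurons of the adult brain have left this cycle, whereas embryonic stem cells cycle fast with a short G1 phase and the embryonic brain still holds dividing progenitors.

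The series held 57 libraries from 18 brain regions of P56 C57BL/6NTac male mice, 9 libraries from 4 regions of E14.5 embryos of that strain and 4 libraries of mouse embryonic stem cells (mESC). The embryonic regions were forebrain (F, n = 1), midbrain (M, n = 2), hindbrain (H, n = 3) and terminal with peduncular hypothalamus (THy/PHy, n = 3), and the stem cells were the C57BL/6 lines B6-1 and B6-2 (n = 2 each), which are separate clones. Tissue punches of several animals were pooled for a brain library, apart from 1 library of the nucleus accumbens (ACB) that came from a single mouse. The animals were fewer than these pools needed, so libraries of different regions share animals, and the SDs and p-values below treat as independent libraries that are not. The mESC were taken off their feeder cells and grown on gelatin with LIF and the kinase inhibitors CHIR-99021, CI-1040 and PD0325901, agents that hold stem cells undifferentiated, so their levels are those of this medium. The adult, embryonic and stem cell samples were collected in separate batches, and RNA of the stem cells was extracted with another kit, so stage, batch and kit cannot be told apart. A member was called in a comparison when its adjusted p (edgeR, all genes tested) was under 0.05 and its absolute log2 fold change was above 1. Total counts were 9074581 to 22229582 per library.

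The labels were checked against markers of the cell types that the samples could hold. The summed TPM of 6 pluripotency genes was 4641 to 4989 in the mESC libraries, at most 19.5 in the embryonic libraries and at most 23.3 in the adult ones. The 6 fibroblast genes, which mark feeder cells, summed to 23.8 to 45.2 TPM in mESC against 230 to 1079 in the embryonic libraries. The 4 genes of mature neurons summed to 1255 to 6070 TPM in the adult libraries, to 123 to 302 in the embryonic ones and to at most 2.76 in mESC. The 6 genes of neural progenitors were at 847 to 3294 TPM in the embryonic libraries, at 76.3 to 837 in the adult ones and at 542 to 557 in mESC. This list thus separated embryonic from adult libraries by a narrow margin only. A single adult library stood apart, since mitochondrial genes took 39.6% of all TPM in VTA (ventral tegmental area) replicate 1, against 7.49% in the median library. Among the embryonic ones, hindbrain replicate 1 had the highest share (22.6%) and the lowest total count of the series. In bulk tissue, fewer cells of a type and less RNA per cell cannot be told apart, which holds for every level below.

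Summed over the 40 members, the level fell in steps from stem cells to embryonic to adult brain. The sum was 6355 ± 39 TPM (SD, n = 4) in mESC, with 6326 and 6381 in the B6-1 libraries and 6317 and 6395 in the B6-2 libraries. Embryonic forebrain had 5149 TPM in its single library. The other 8 embryonic libraries had 1011 to 1550 TPM and the 57 adult libraries had 91.3 to 271 TPM, so these ranges did not overlap. With each group of libraries weighted equally, the sum was 34 times higher in mESC and 11.8 times higher in the embryonic regions than in the adult regions. The second ratio rested on forebrain in good part, since without it the value was 6.56.

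**Figure D1:**
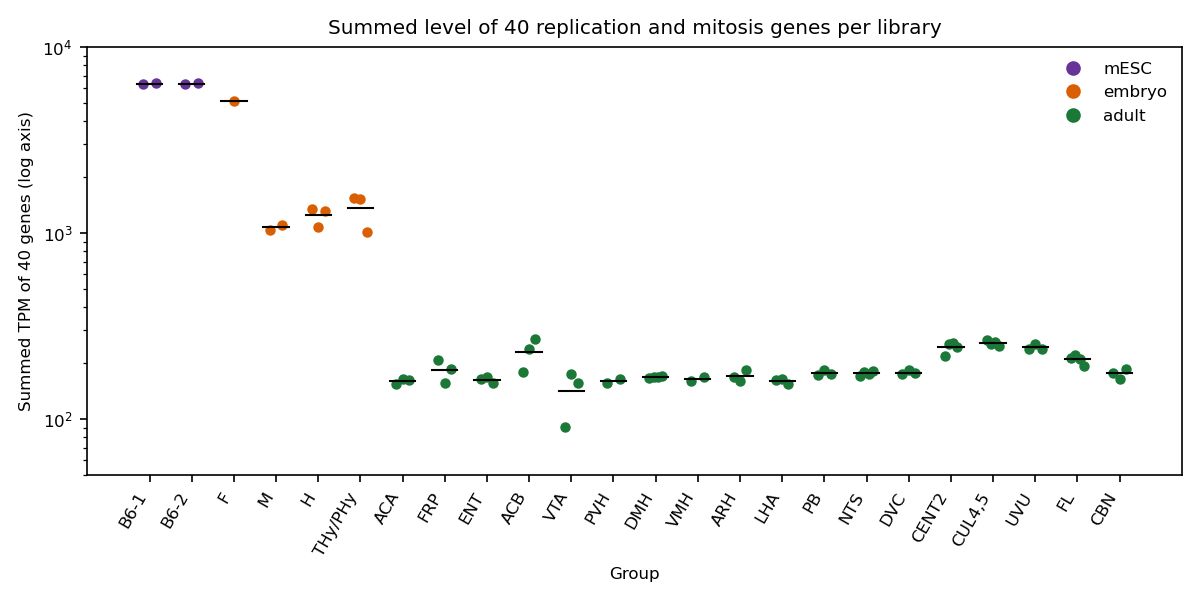
Summed TPM of the 40 members in each library, on a log axis, by region or line; points are libraries and lines are group means. The 4 mESC libraries lie at 6317 to 6395 TPM, F at 5149, the other embryonic libraries at 1011 to 1550 and the adult libraries at 91.3 to 271.

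The make-up of the sum differed as well. In mESC the 25 members with a mean of at least 100 TPM included factors of every step, and Pcna (7.84% of the sum), Mcm7 (6.19%) and Top2a (5.59%) were the most abundant. In the adult brain Pcna alone made up 29% of the sum, and Pcna, Rrm1, Mcm7 and Ccne1 together made up 56.5%, against 17.6% in mESC. An adult mean under 1 TPM was found for 9 members and one of at least 5 TPM for 8. The adult sum was thus mostly made up of the clamp, a ribonucleotide reductase subunit, a helicase subunit and a G1/S cyclin.

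Promoters of the members were read from RefSeq (GRCm38.p6), from 250 bases before to 50 bases after the first listed start, because cell cycle genes are known to share short promoter elements. A promoter was found for 32 of the 40 members. The windows were searched on both strands for the cell cycle homology region (CHR, TTTGAA), which is bound by MuvB complexes in many mitotic genes, for the CCAAT box (CCAAT), and for an E2F-like element (TTTCCCGC, TTTGGCGC, TTTCGCGC or TTTGCCGC). Of the 17 mitotic members and marks with a promoter, 12 (70.6%) held TTTGAA, against 2 of the 15 replication members (13.3%) and 18.1% of all 27025 promoters. The E2F-like letters lay in 8 of the 15 replication members (53.3%), in 1 of the 17 mitotic ones (Cdk1) and in 2.32% of all promoters. CCAAT was frequent in both groups (73.3% and 88.2%, against 37.9% of all promoters). A match is a run of letters and not evidence of binding.

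Shown here are the 2 proliferation marks, 2 mitotic and 2 replication members whose values are given below, and Ccne1, whose window held none of the 3 elements. Capitals mark the matches, on either strand, and matches that overlap run together.
Mki67, chr7:135716330-135716629, minus strand: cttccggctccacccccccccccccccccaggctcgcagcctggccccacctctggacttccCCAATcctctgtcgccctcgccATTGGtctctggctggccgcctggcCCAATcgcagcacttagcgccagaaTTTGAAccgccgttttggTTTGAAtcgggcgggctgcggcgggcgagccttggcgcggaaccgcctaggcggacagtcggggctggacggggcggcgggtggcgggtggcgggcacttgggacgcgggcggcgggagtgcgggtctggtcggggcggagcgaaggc
Top2a, chr11:99024140-99024439, minus strand: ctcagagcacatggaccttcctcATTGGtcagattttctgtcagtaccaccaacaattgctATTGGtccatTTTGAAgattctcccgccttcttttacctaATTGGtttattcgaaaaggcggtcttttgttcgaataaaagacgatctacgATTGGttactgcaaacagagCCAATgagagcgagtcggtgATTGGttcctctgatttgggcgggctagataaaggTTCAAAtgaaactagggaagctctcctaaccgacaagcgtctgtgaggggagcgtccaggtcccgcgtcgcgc
Cdc20, chr4:118437294-118437593, minus strand: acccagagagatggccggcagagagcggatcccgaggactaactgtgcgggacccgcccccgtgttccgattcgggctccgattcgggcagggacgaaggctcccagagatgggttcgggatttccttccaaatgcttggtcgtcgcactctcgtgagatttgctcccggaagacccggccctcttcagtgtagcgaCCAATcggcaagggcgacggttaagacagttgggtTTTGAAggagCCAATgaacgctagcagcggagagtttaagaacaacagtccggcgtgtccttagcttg
Cdk1, chr10:69352863-69353162, minus strand: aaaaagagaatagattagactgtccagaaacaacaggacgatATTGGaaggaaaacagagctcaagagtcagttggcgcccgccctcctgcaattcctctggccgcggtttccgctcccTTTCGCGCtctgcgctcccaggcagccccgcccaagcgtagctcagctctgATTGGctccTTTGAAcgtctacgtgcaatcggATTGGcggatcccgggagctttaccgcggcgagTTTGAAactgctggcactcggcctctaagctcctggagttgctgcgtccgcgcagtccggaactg
Mcm5, chr8:75109259-75109558, plus strand: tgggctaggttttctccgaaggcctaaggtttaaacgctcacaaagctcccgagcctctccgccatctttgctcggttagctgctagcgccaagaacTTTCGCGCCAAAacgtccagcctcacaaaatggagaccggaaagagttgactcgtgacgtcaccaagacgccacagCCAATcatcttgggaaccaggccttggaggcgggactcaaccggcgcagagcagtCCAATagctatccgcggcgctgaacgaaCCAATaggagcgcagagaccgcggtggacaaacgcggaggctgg
Mcm7, chr5:138171834-138172133, minus strand: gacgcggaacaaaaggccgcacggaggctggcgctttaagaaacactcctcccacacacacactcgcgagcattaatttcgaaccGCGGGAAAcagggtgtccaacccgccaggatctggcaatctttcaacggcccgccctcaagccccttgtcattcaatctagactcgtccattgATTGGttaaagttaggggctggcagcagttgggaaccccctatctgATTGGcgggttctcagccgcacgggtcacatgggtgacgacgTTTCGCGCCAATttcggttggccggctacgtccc
Ccne1, chr7:38107441-38107740, minus strand: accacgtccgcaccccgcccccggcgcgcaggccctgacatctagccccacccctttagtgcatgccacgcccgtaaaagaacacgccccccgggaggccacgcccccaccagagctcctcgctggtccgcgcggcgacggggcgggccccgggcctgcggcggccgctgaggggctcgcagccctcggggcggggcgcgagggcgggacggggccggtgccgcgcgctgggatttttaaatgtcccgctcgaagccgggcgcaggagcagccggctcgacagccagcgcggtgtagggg

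**Figure D2:**
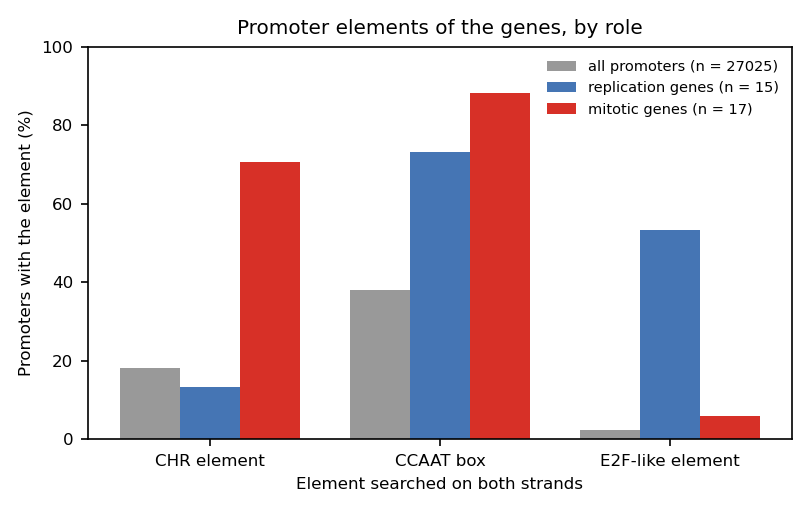
Share of promoters (%, y axis) that hold each of the 3 elements, for all promoters, the 15 replication members and the 17 mitotic members and marks. The CHR letters were found in 70.6% of the mitotic group and the E2F-like letters in 53.3% of the replication group.

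All 40 members were called higher in mESC than in the adult brain, where 31.5% of all genes tested were called higher and 63.7% in either direction. The median log2 fold change of the members was 6.66 and the range was 1.89 to 9.92, while the median over all genes lay between -0.05 and 0.02 in every comparison. Every one of the 57 adult libraries lay below every mESC library for 39 members, a pattern found for 20.8% of the 19351 tested genes with a row of the same name in the TPM table. The exception was Ccne2, a cyclin E that partners Cdk2 at the start of S phase, which was at 23.4, 25.9, 27.6 and 34 TPM in mESC and at 4.18 to 23.6 TPM in the adult libraries.

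By role, the median log2 fold change between mESC and adult brain was highest for the 3 mitotic cyclins and their kinase (9.20) and for the 2 proliferation marks (8.88). Top2a, the topoisomerase that untangles sister chromatids, was at 322, 328, 385 and 384 TPM in mESC, and its adult mean was 1.11 ± 1.69 TPM (SD, n = 57). Bub1, a kinase of the spindle checkpoint, had the largest log2 fold change of the set (9.92, SE 0.12), and Ccnb1, the cyclin of mitotic entry, had one of 9.37 (SE 0.09). These values rest on few adult reads: the adult median was 3 counts per library for Bub1, 3 for Aurkb and 8 for Ccnb1, against mESC medians of 3048, 1439 and 6201. The 7 spindle, kinetochore and cytokinesis members had a median log2 fold change of 6.82 and the 7 mitotic kinases and checkpoint members one of 7.07.

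The 8 licensing members had a median log2 fold change of 6.29 and the 6 fork members one of 5.07. The roles overlapped, since Rrm2 (8.02), Cdc6 (7.89) and Mcm3 (7.31) lay above the medians of the spindle and kinase members and Nusap1, a spindle protein, was at 4.88, and the difference between roles was not tested. Mcm5, a helicase subunit, was at 254, 256, 267 and 274 TPM in mESC and at 0.983 to 11.9 TPM (median 2.79) in the adult libraries, a log2 fold change of 6.57 (SE 0.07). Pcna was at 484, 466, 540 and 504 TPM in mESC and at 29 to 80.2 TPM in the adult libraries, a log2 fold change of 3.49 (SE 0.04). The groups did not overlap for either gene, although adult Pcna was far from 0. The smallest log2 fold changes of the set were those of Ccne2 (1.89, SE 0.14), Rrm1, the large subunit of ribonucleotide reductase (3.17, SE 0.04), and Ccne1, the other cyclin E (3.25, SE 0.06).

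**Figure D3:**
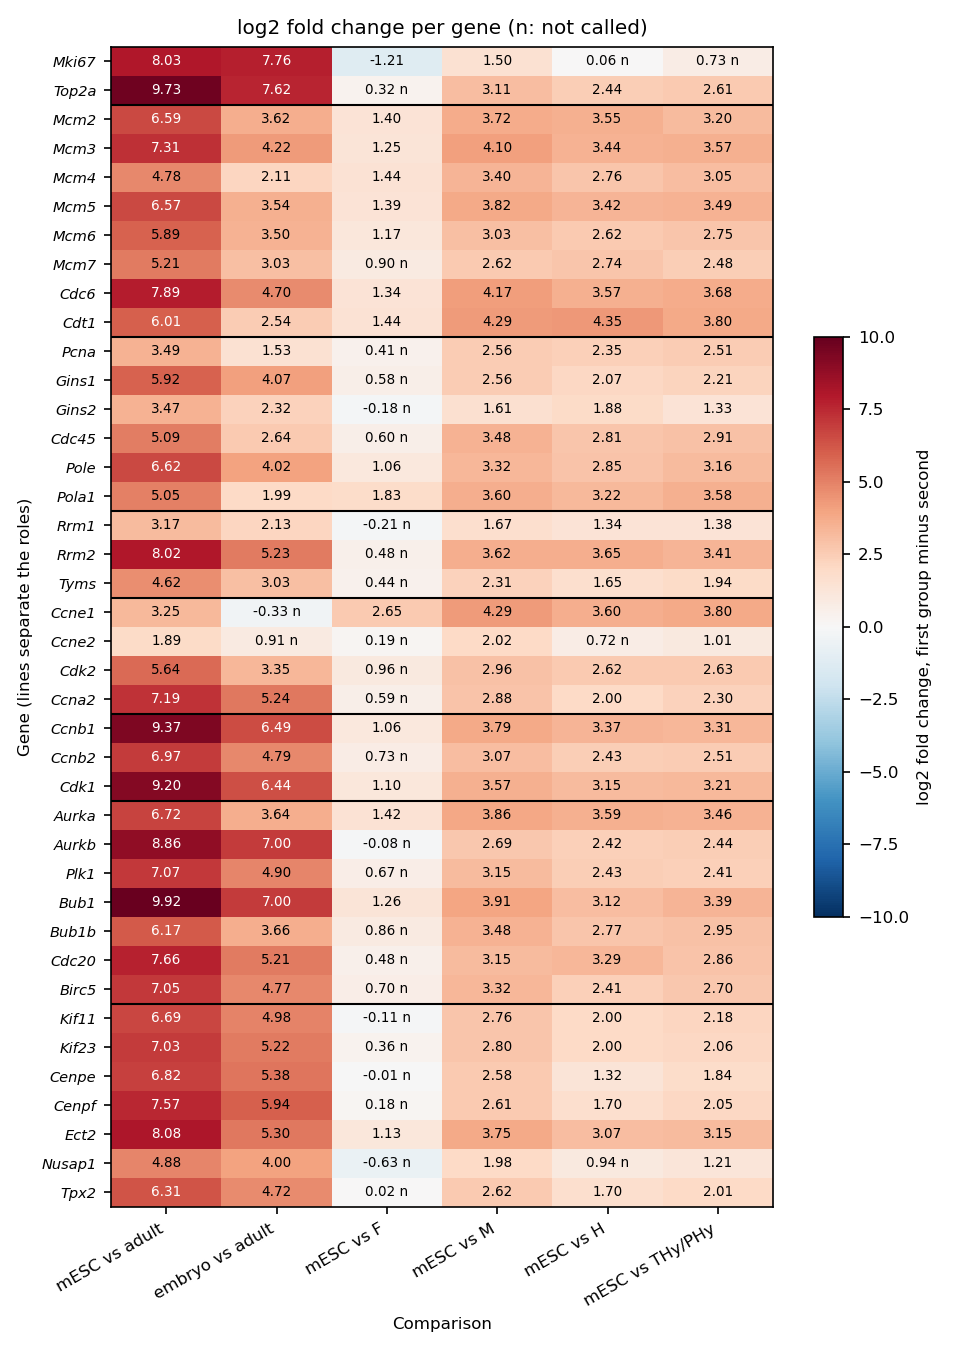
Log2 fold change (colour and printed value, first group minus second) of each member (rows, in blocks by role) in 6 comparisons (columns), with n marking a value that was not called. Every value is above 0 for mESC against adult brain, whereas for mESC against F the values run from -1.21 (Mki67) to 2.65 (Ccne1).

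Embryonic brain was also above adult brain for most of the set. In all, 38 members were called higher and 0 lower, where 17.7% of all genes tested were called higher and 37.5% in either direction, and the members' median log2 fold change was 4.14. The largest log2 fold changes were those of Mki67 (7.76, SE 0.16), the gene of the Ki-67 antigen used to mark cycling cells, and Top2a (7.62, SE 0.16), followed by Bub1 and Aurkb (both 7.00). All adult libraries lay below all embryonic libraries for 36 members, against 5.75% of those 19351 genes. Without the forebrain library 38 members were still called higher, with a median of 3.66. The 5 red cell genes summed to 2143 to 6173 TPM in the embryonic libraries and to 265 to 4650 TPM in the adult ones, and their part in these differences was not tested.

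The 2 members that were not called were the cyclins E. Ccne1 was at 20.1 TPM in F, at 9.28 and 8.92 in M, at 17.2, 14 and 9.23 in H, and at 12.8, 15.4 and 12.8 in THy/PHy. Its adult libraries ran from 7.37 to 25.9 TPM with a median of 15, and 54 of the 57 lay at or above the lowest embryonic library, so the groups overlapped. The log2 fold change of Ccne1 was -0.33 (SE 0.07, adjusted p = 7e-05), under the limit of 1. For Ccne2 it was 0.91 (SE 0.12, adjusted p = 5.9e-10), and limma on either TPM scale (1.19 and 1.23) and edgeR without TMM (1.09) put it past the limit. Pcna had the next smallest value (1.53, SE 0.04). In mESC Ccne1 was at 97.1, 98.6, 94.8 and 102 TPM, above every brain library.

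The mESC were above each of the 3 embryonic regions with replicates for nearly all members. Against M all 40 were called higher (26.6% of all genes tested were, and 55.9% in either direction). Against H 37 were called higher (27%, and 58.6% in either direction) and against THy/PHy 39 (26.9%, and 57.1%), with medians of 2.62 and 2.67 on the log2 scale and 3.13 against M. For 37 members every library of M, H and THy/PHy lay below every mESC library, a pattern found for 23.3% of those 19351 genes. Licensing members had the highest medians of all roles, at 3.77, 3.43 and 3.34, and Cdt1, the loading factor that geminin holds in check, had log2 fold changes of 4.29, 4.35 and 3.80. Those of Ccne1 were 4.29, 3.60 and 3.80. Spindle members were closer, with medians of 2.62, 1.70 and 2.05, and so was Rrm1 (1.67, 1.34 and 1.38).

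Mki67 was the main exception. It was at 55.5, 57.2, 54 and 53.6 TPM in mESC, at 80.9, 48.5 and 40.3 in H, and at 42.9, 58.4 and 28.5 in THy/PHy. The mESC libraries agreed closely and lay inside the spread of both embryonic regions. Its log2 fold change was 0.06 (SE 0.35, 95% interval -0.63 to 0.74, adjusted p = 0.894) against H and 0.73 (SE 0.36, adjusted p = 0.0603) against THy/PHy, and leaving out hindbrain replicate 2 or 3 turned the first value to -0.08 or -0.22, while without replicate 1 it was 0.65. Only against M, at 27.1 and 28.9 TPM, was it called, with 1.50 (SE 0.43, adjusted p = 0.00158). The other members not called against H were Ccne2 (0.72, SE 0.23) and Nusap1, a protein that bundles spindle microtubules (0.94, SE 0.17), both with an adjusted p under the threshold and a fold under the limit.

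Embryonic forebrain stood apart from the other embryonic regions and came closest to mESC. Its single library was above all 8 other embryonic libraries for each of the 40 members, a pattern whose share over all genes was not counted. All 40 were called higher in F than in the mean of the other 3 regions, a comparison added after the levels were seen, where 5.93% of all genes tested were called higher and 14% in either direction. The members' log2 fold changes ran from 1.06 for Ccne2 to 3.08 for Rrm2, the small and cell-cycle-regulated subunit of ribonucleotide reductase, with a median of 2.06. Since F had 1 library, its spread was taken from the other groups in the fit, and differences between forebrain and this library cannot be told apart. Of the 10 marker lists, 5 lay outside the range of the other 8 embryonic libraries in F. The 6 neural progenitor genes summed to 3294 TPM in F against 847 to 2785 TPM, and the 4 genes of oligodendrocyte precursors to 98.6 against 28.2 to 58.8 TPM. Lower in F were the 4 genes of mature neurons (123 against 178 to 302 TPM), the 3 of endothelium (70.4 against 74.8 to 127 TPM) and the 3 of cerebellar granule cells (0.157 against 10.7 to 93.1 TPM). Among single markers, Olig2 (2.95), Hes5 (2.37) and Sox2 (1.48) were called higher in F. Snap25 (-1.58), Rbfox3 (-1.31) and Syt1 (-1.11) of mature neurons were called lower, while Camk2a of that list was higher (0.54) and not called. Of the neuroblast genes, Eomes was called higher (3.42), and Neurod1 (-1.36) and Stmn2 (-1.14) were called lower. Dcx (-0.97) and Tubb3 (-0.16) were lower and not called. Of the 98.6 TPM of the oligodendrocyte precursor list in F, Olig2 alone held 72.9 TPM. In that list Olig1 was also higher in F (0.93), while Pdgfra (-1.25) and Cspg4 (-0.34) were lower. The neuroblast list as a whole, at 1757 TPM, lay within the range of the others (1111 to 3216 TPM). The part of these cell types in the result was not tested.

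Against F, mESC were called higher for 15 members and lower for 1, where 21.5% of all genes tested were called higher and 25.8% lower (47.3% in either direction). The members' median log2 fold change was 0.69. On the TPM scale limma, with a pseudocount of 0.5, called 7 higher and 1 lower. That fit called 2783 of 19351 genes higher and 5318 lower. The F library lay below all mESC libraries for 27 members and above all of them for 10, and the shares over all genes were not counted. By role, 7 of the 8 licensing members were called higher in mESC (median 1.36), against 1 of the 7 spindle, kinetochore and cytokinesis members (median 0.02), 2 of the 6 fork members and 0 of the 3 deoxynucleotide members.

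Licensing genes were higher in mESC than in F in every library. Mcm5 was at 132 TPM in F and at 254 to 274 TPM in mESC, with a log2 fold change of 1.39 (SE 0.24, adjusted p = 1.2e-06). Cdc6 was at 23.7 TPM in F against 52.3, 51.8, 52.7 and 47.7 in mESC (1.34, SE 0.23, adjusted p = 1.1e-06), and Cdt1 was at 51.6 against 115, 123, 102 and 114 (1.44, SE 0.23, adjusted p = 3.6e-07). Mcm7, whose promoter is shown above beside that of Mcm5, fell just under the limit (0.90, SE 0.19). The largest differences were those of Ccne1 (2.65, SE 0.22, adjusted p = 3e-15) and Pola1, the catalytic subunit of polymerase alpha that primes each new strand (1.83, SE 0.25, adjusted p = 4.6e-09).

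Members of the fork and of the deoxynucleotide supply differed among themselves against F. Pola1 was at 28 TPM in F, at 138 to 205 TPM in mESC and at 6.37 to 11.3 TPM in the other embryonic libraries, and Pole, the catalytic subunit of polymerase epsilon, was the other fork member called (1.06, SE 0.22). Cdc45, which joins the helicase to the fork, was at 52.2, 51.2, 46.8 and 42.9 TPM in mESC, at 43.1 TPM in F and at 5.28 to 10 TPM in the other embryonic libraries. Rrm2 was at 327, 336, 352 and 338 TPM in mESC, at 307 TPM in F and at 25.2 to 60.2 TPM in the others. All 4 mESC libraries lay above F for Rrm2 and 3 of the 4 for Cdc45. Their log2 fold changes against F, Cdc45 first, were 0.60 (SE 0.23) and 0.48 (SE 0.28), neither of them called. Pcna was at 443 TPM in F and at 100 to 147 TPM in the other embryonic libraries (0.41 against F, SE 0.13, adjusted p = 0.00516).

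Among the kinases and cyclins, Cdk2, the partner of cyclins E and A, was at 87.8, 83.5, 92.1 and 87.1 TPM in mESC, at 59.4 in F and at 11.6 to 22.6 in the other embryonic libraries. Cdk1 was at 320, 320, 305 and 311 TPM in mESC, at 178 in F and at 28 to 59.8 in the others, and Ccnb1 at 333, 347, 299 and 303, at 216 and at 19.8 to 58.7 TPM. Both mitotic genes were called against F, with log2 fold changes of 1.10 (SE 0.32) and 1.06 (SE 0.27), and Cdk2 was not (0.96, SE 0.19). Plk1 was at 129, 132, 113 and 117 TPM in mESC and at 95.4 in F (0.67, SE 0.26).

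Mitotic kinases, checkpoint members and spindle members varied against F. Of the 7 mitotic kinases and checkpoint members 2 were called higher in mESC, and their log2 fold changes ran from -0.08 to 1.42 with a median of 0.70. Aurka, the kinase of the spindle poles, was at 134, 134, 131 and 127 TPM in mESC and at 64.5 in F (1.42, SE 0.20), and Bub1 at 77.7, 77.5, 96.5 and 89.5 against 48.4 TPM (1.26, SE 0.32). Bub1b, a checkpoint protein related to it, was at 113 to 125 TPM in mESC and at 79 in F and was not called (0.86, SE 0.32). The spindle member that was called was Ect2, which acts in cytokinesis (1.13, SE 0.31), at 108, 109, 96.3 and 91.5 TPM in mESC and at 82.8 in F. On the TPM scale limma called neither Bub1 (0.80) nor Ect2 (0.29).

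Other members of these roles were closer in F and mESC. Cdc20 was at 173, 181, 172 and 166 TPM in mESC and at 162 TPM in F, and Birc5 at 175, 179, 167 and 169 against 135 TPM. Kif11, the motor that pushes spindle poles apart, was at 61.1, 63.1, 67 and 63.2 TPM in mESC and at 90.2 in F, and Tpx2, the activator of Aurora A, at 99.8, 103, 94.4 and 94.7 against 122 TPM. On counts the values for Cdc20, Birc5, Kif11 and Tpx2 were 0.48, 0.70, -0.11 and 0.02, and none of these was called. Promoter letters differed among these genes. The windows of Cdc20 and Kif11 hold TTTGAA and CCAAT, as does that of Aurka, while that of Bub1 holds only CCAAT and that of Birc5 none of the 3 elements. Tpx2 had no promoter entry.

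Mki67 ran the other way. Its level was 167 TPM in F, above every other library, and 53.6 to 57.2 TPM in mESC. The log2 fold change on counts was -1.21 (SE 0.47, adjusted p = 0.0232). DESeq2 gave -1.03 with an adjusted p of 0.33, so the call depended on the test, although F was the higher group under every alternative. Nusap1, also higher in F, was at 117 TPM there and at 76.2, 70.9, 72.1 and 67.9 in mESC (-0.63, SE 0.23, adjusted p = 0.0145), and Aurkb, the kinase of the chromosomal passenger complex, was at 129 TPM in F against 90.9, 94.8, 77.4 and 83.5 in mESC. Rrm1 was at 246 TPM in F against 121 to 138 TPM in mESC, but on counts its difference was -0.21 (SE 0.11, adjusted p = 0.0758). On counts the Aurkb difference was -0.08 (SE 0.25, adjusted p = 0.814), so for both genes TPM and counts gave different pictures. Top2a did not separate the groups on counts either (0.32, SE 0.49, 95% interval -0.65 to 1.28), with 487 TPM in F.

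**Figure D4:**
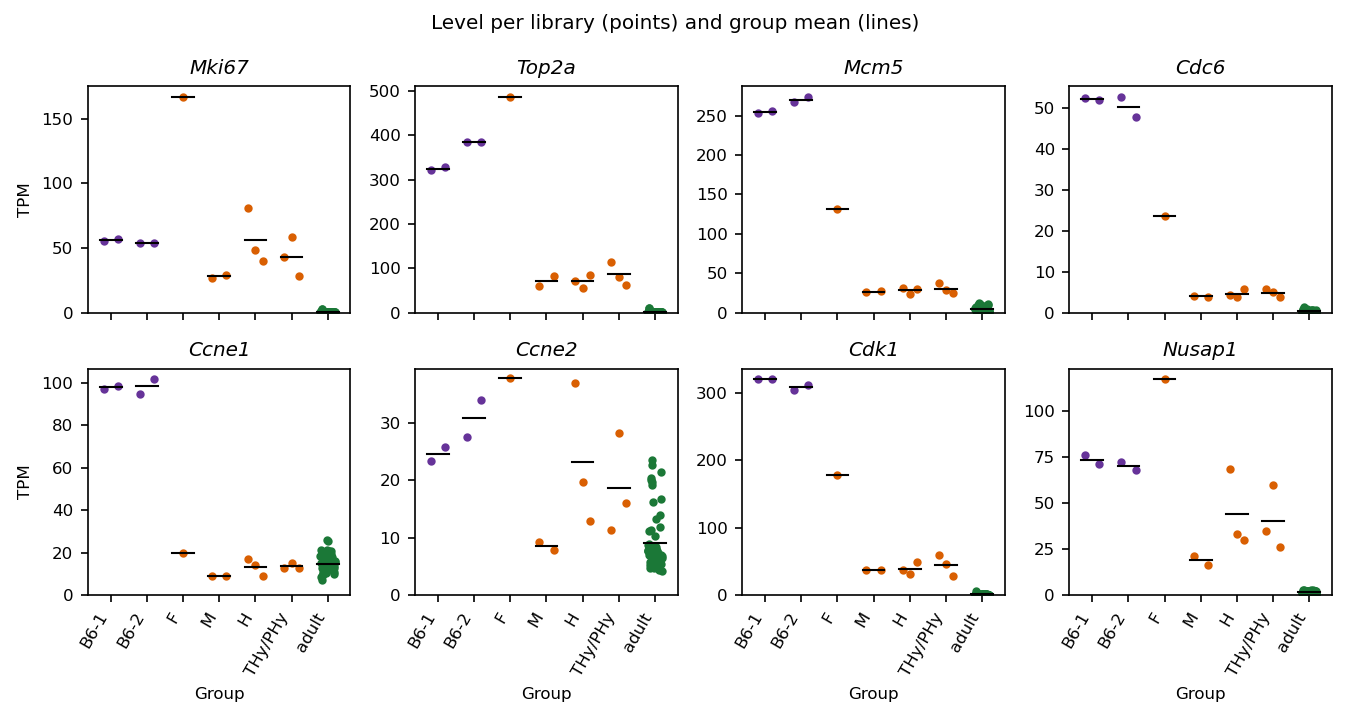
TPM of 8 members (panels) in each library by group, with all adult libraries in 1 group; points are libraries, lines are group means and the axes are linear. F lies above the mESC libraries for Mki67 (167 against 53.6 to 57.2 TPM) and below them for Mcm5 (132 against 254 to 274 TPM) and Ccne1 (20.1 against 94.8 to 102 TPM).

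Between M and H, 23 members had an adjusted p under 0.05 in edgeR, all of them lower in M (31.3% of all genes passed in either direction), and the median over the 40 was -0.64. Most were under the limit on fold, and 4 members were called lower in M (6.65% of all genes were, 9.22% in either direction), namely Mki67 (-1.44, SE 0.44), Ccne2 (-1.30, SE 0.30), Cenpe, a kinetochore motor (-1.27, SE 0.27), and Nusap1 (-1.04, SE 0.21). All 4 rested on hindbrain replicate 1, since without it 0 members were called. Mitochondrial genes took 22.6% of the TPM of that library, against 11.8% and 6.1% in the other hindbrain libraries, and its total count of 9074581 was the lowest of the series. Hindbrain replicate 1 had the highest hindbrain level for 22 members, among them Ccne2 (36.9, against 19.8 and 13 TPM) and Nusap1 (68.3, against 33.4 and 30 TPM), and the share over all genes was not counted. Its progenitor and neuroblast genes were the lowest of the region, at 847 TPM against 1315 and 2757, and at 1111 TPM against 2555 and 2802, and the part of these values in the result was not tested. Without hindbrain replicate 2 or 3, 7 or 8 members were called, and 2 without midbrain replicate 1.

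Between M and THy/PHy 6 members had an adjusted p under 0.05, all lower in M (7.67% of all genes passed in either direction), and only Ccne2 was called (-1.01; 2.28% of all genes were called lower and 3.86% in either direction), and it was lost when M replicate 1 or 2 or THy/PHy replicate 2 or 3 was dropped, though not without THy/PHy replicate 1. Between H and THy/PHy edgeR called 0 members (6.83% of all genes were called), 6 had an unadjusted p under 0.05, and DESeq2 called 0 (6.46% of all genes). Replicate 3 of THy/PHy had the lowest level of its region for 37 members, a pattern whose share over all genes was not counted. The summed level of the region ran from 1011 to 1550 TPM.

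No member passed the test between the 2 stem cell lines. Both edgeR and DESeq2 called 0 members between B6-1 and B6-2, where edgeR called 0.936% of all genes and DESeq2 0.45%. A single member, Ccne2, had an unadjusted p under 0.05 in edgeR, with a log2 fold change of -0.64 and an adjusted p of 0.347. Pola1 was at 205 and 195 TPM in B6-1 and at 138 and 144 in B6-2, and Ccna2, the cyclin of S phase and G2, at 131 and 133 against 181 and 182. Those TPM ranges did not overlap between the lines, yet on counts neither passed the test.

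Within the adult brain, 38 of the 40 members differed among the 18 regions by the adjusted p of an F test, but so did 82.4% of all genes tested. Gins1 (adjusted p = 0.395) and Gins2 (0.662) did not pass. The 5 members with the widest ratio between regional means were Cdc20, Bub1, Top2a, Mki67 and Birc5, all with low levels. Cdc20, the activator of the anaphase-promoting complex, had its highest mean in the cerebellar culmen (CUL4,5) with 5.38 TPM and its lowest in the anterior cingulate area (ACA) with 0.227 TPM, a ratio of 23.7. Bub1 ran from 0.689 TPM in ACB to 0.0298 TPM in VTA, at few reads. Top2a ran from 6.96 TPM in ACB to 0.422 TPM in the central lobule (CENT2), Mki67 from 2.4 TPM in ACB to 0.15 TPM in the ventromedial hypothalamic nucleus (VMH), and Birc5 from 2.92 TPM in VMH to 0.265 TPM in CUL4,5. Pcna was the most even member, at 73.5 TPM in CUL4,5 and 42 TPM in the paraventricular nucleus, 1.75 times apart.

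The highest regional mean lay in ACB for 15 of the 38 members and in CUL4,5 for 8, and the shares of all genes that peak there were not counted. Against the mean of the other 17 regions, a comparison added after the levels were seen, 16 members were called higher in ACB and 0 lower, where 7.37% of all genes tested were called higher and 12.8% in either direction. The 3 that act in licensing or S phase were Rrm2 (1.64), Cdc6 (1.62) and Ccna2 (1.48). The other calls were mitotic genes and the proliferation marks, such as Aurkb (2.87), Bub1 (2.60) and Cenpe (1.87). These named genes were at low levels, and their ACB libraries overlapped the other adult ones. Aurkb was at 0.403 to 1.78 TPM in ACB and at up to 1.46 TPM elsewhere. Bub1 was at 0.459 to 0.892 against up to 0.893 TPM, and Cenpe at 1.16 to 2.38 against up to 2.73 TPM. The adult median was 3 counts per library for Aurkb and for Bub1, and 26 for Cenpe.

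Mki67 was at 1.18, 2.88 and 3.15 TPM in ACB and at no more than 0.81 TPM in the other 54 adult libraries, so the groups did not overlap. Its log2 fold change was 3.37 (SE 0.28, adjusted p = 8.6e-15). Top2a was at 1.78, 9.67 and 9.44 TPM in ACB and at no more than 1.87 TPM elsewhere in the adult brain, with a log2 fold change of 3.55 (SE 0.28, adjusted p = 1.3e-15). Cdk1 was at 0.777, 2.89 and 6.05 TPM, where the other adult libraries reached 2.23 TPM, with a log2 fold change of 2.00 (SE 0.33, adjusted p = 8.4e-07). In each of the 3 genes ACB replicate 1 was the lowest, and for Top2a and Cdk1 it overlapped the other regions. Without replicate 1, 2 or 3 of ACB the number called was 18, 15 or 14, and limma on log2(TPM + 0.5) called 6, all of them higher. That limma fit called 958 of 19351 genes higher in ACB.

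Even so, ACB was far below the embryonic brain, where Mki67 was at 27.1 TPM or more. Among cell type genes called higher in ACB were Dcx of neuroblasts (log2 fold change 1.51), Hes5 of neural progenitors (1.52), Aif1 of microglia (1.01) and Camk2a of mature neurons (2.59). Cx3cr1 (0.89), Tmem119 (0.86) and P2ry12 (0.76), also of microglia, were higher and not called. Other members of the progenitor and mature neuron lists differed and were not called. Of the progenitor genes, Pax6 (-0.82), Vim (-0.59) and Fabp7 (-0.40) were lower, and Nes (-0.02) and Sox2 (0.06) hardly moved. Of the neuron genes, Snap25 was lower (-0.90), and Syt1 (0.73) and Rbfox3 (0.37) were higher. The microglia list summed to 87.5 to 96.7 TPM in ACB against 15.5 to 96.6 TPM in other adult libraries, the 4 genes of oligodendrocyte precursors to 140 to 149 TPM against 43.4 to 333 TPM, and the 6 of neural progenitors to 181 to 249 TPM against 76.3 to 837 TPM. The neuroblast list as a whole was low, at 392 to 567 TPM against 582 to 1328 TPM, with Neurod1 and Stmn2 called lower. Their part in the ACB result was not tested, and which ACB library came from the single mouse was not assigned here.

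In the cerebellar lobules CENT2, CUL4,5 and the uvula (UVU) 3, 3 and 4 members were called higher and 2, 3 and 2 lower. Of all genes tested, 15.2%, 18.2% and 15.9% were called there in either direction, so the members were not called more often. Cdc20 had the largest log2 fold change in CENT2 (1.97, SE 0.19) and in CUL4,5 (2.03, SE 0.19), and its value in UVU was just under the limit (0.98, SE 0.27). It was at 2.85, 4.85, 7.62 and 4.61 TPM in CENT2, at 5.14, 8.17, 4.8 and 3.4 in CUL4,5 and at 2.07 to 3.17 TPM in UVU, where the other 46 adult libraries ran from 0.182 to 3.31 TPM. Cdc20 was also among the members called in ACB (1.08, SE 0.25), a call lost with either limma fit and without ACB replicate 3 (0.72).

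Mcm5 was called in all 3 lobules. Their 11 libraries held Mcm5 at 7.41 to 11.9 TPM, where the other 46 adult libraries ran from 0.983 to 8.92 TPM with a median of 2.51. The top of that range was in the flocculus (FL), also of the cerebellum, at 4.13 to 8.92 TPM. In these lobules Mcm5 had log2 fold changes of 1.27 (SE 0.11), 1.47 (SE 0.11) and 1.36 (SE 0.13). Ccne2 was at 11.3 to 23.6 TPM in the lobules and at 4.18 to 13.3 TPM elsewhere, with FL at 7.63 to 13.3 TPM, and was called in CUL4,5 (1.19) and UVU (1.08). Birc5, the survivin subunit of the passenger complex, was lower in all 3 lobules (-1.02, -1.85 and -1.21). The remaining calls were Cdt1 in CENT2 (1.05), Cdc45 (1.18) and Bub1 (1.49, at under 1 TPM) in UVU, and, lower, Mki67 in CENT2 (-1.43), Kif11 in CUL4,5 (-1.28) and Kif23 in CUL4,5 (-1.12) and UVU (-1.45). The summed level of the lobules, 219 to 265 TPM, was within the range of ACB (179 to 271 TPM). Licensing members summed to 64.8 to 69.5 TPM in the lobules and to 55.2 TPM in ACB, while the 2 marks summed to 0.609 to 0.908 TPM and to 9.37 TPM.

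**Figure D5:**
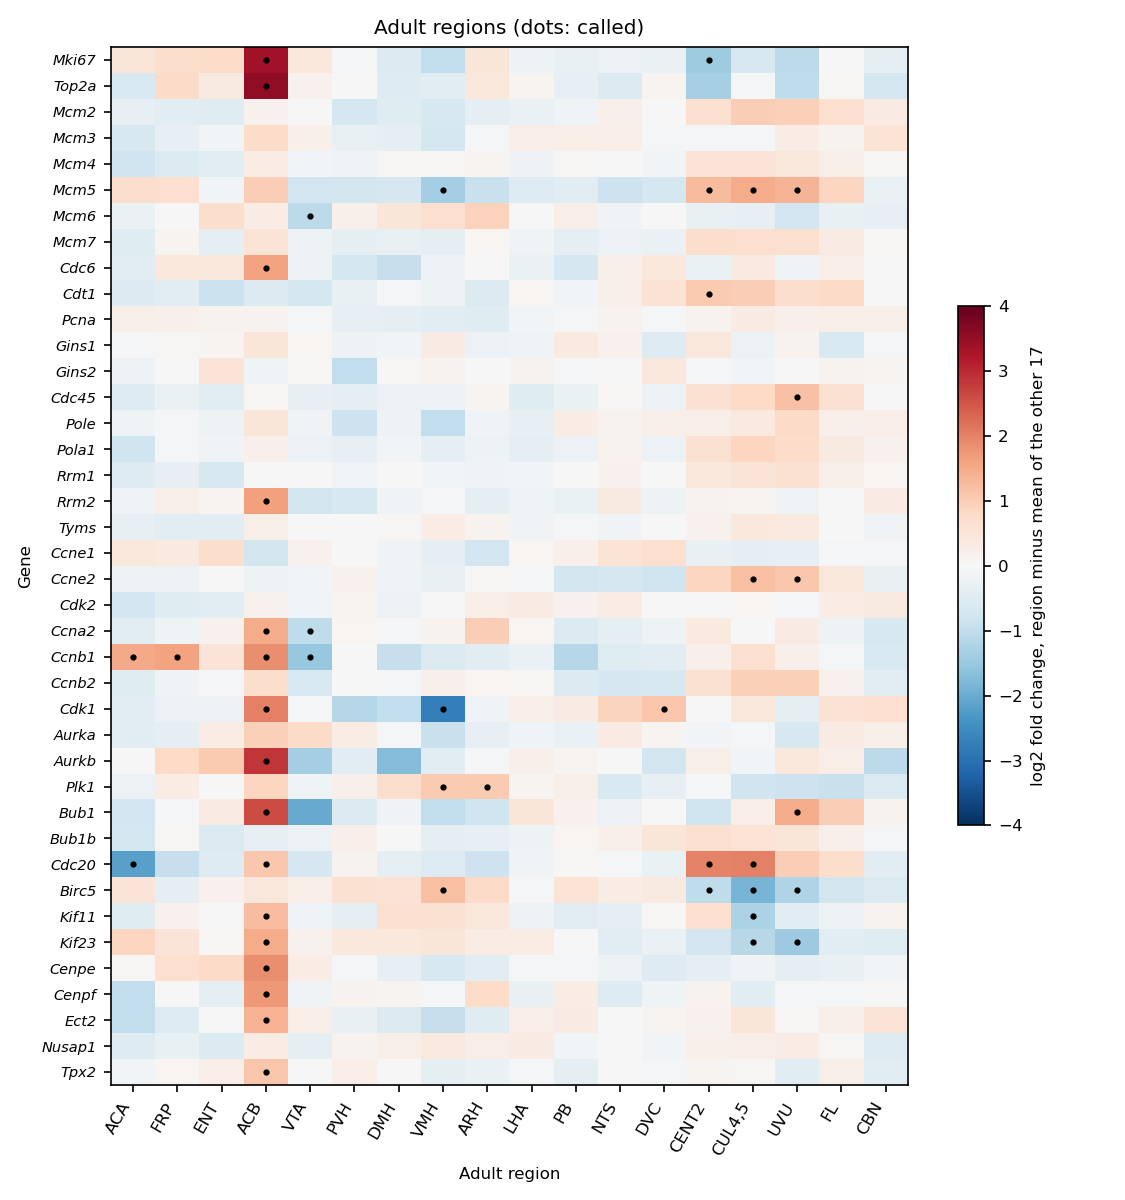
Log2 fold change (colour) of each member (rows) in each adult region (columns) against the mean of the other 17 regions, with dots for called values. ACB has 16 dots, led by Top2a (3.55) and Mki67 (3.37), and Mcm5 has dots in the 3 cerebellar lobules (1.27 to 1.47).

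Other regions had between 0 and 4 called members in edgeR. The lateral hypothalamic area, the paraventricular nucleus, the parabrachial nucleus, the dorsomedial nucleus, the nucleus of the solitary tract, the cerebellar nuclei, the flocculus and the entorhinal area had 0, where 4.98%, 5.1%, 5.76%, 7.25%, 7.73%, 10.7%, 11.6% and 13% of all genes tested were called, and in them 4 to 18 members had an unadjusted p under 0.05. The arcuate nucleus had Plk1 (1.04, with 12.5% of all genes called) and the dorsal vagal complex Cdk1 (1.10, with 6.39%). VMH had Birc5 (1.21) and Plk1 (1.06), the kinase of mitotic entry, higher, and Mcm5 (-1.37) and Cdk1 (-2.73, SE 1.02) lower (8.87% of all genes were called in either direction). The 2 cortical regions ACA and the frontal pole (FRP) had Ccnb1 higher (1.53 and 1.60), and ACA had Cdc20 lower (-2.17), with 15.5% and 12.6% of all genes called. VTA had Ccna2, Ccnb1 and Mcm6 lower (-1.03, -1.53 and -1.05; 10.2% of all genes were called), and its replicate 1, the library rich in mitochondrial transcripts, was the lowest of all adult libraries for 16 members. How many of all genes were lowest in that library was not counted.

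Genes around the members were described with 98 further genes of the same pathways. Of these, 78 were called higher and 5 lower in mESC than in adult brain (31.5% and 32.2% of all genes), and 62 and 1 in embryonic than in adult brain (17.7% and 19.9%). Of the 13 origin recognition and firing factors, 12 were called higher in mESC than in adult brain and 9 higher than in F, where 21.5% of all genes tested were called higher and 47.3% in either direction, which is also the background of the counts against F that follow. Among them were Orc1, a subunit of the origin recognition complex (log2 fold changes of 8.18 and 3.79), and Ticrr, which helps to start forks (10.11 and 2.40). All 19 further fork genes were called higher in mESC than in adult brain and 5 of them higher than in F. All 8 kinetochore genes were higher in mESC and in embryonic brain than in adult brain, and 0 of the 8 were called between mESC and F by edgeR, where log2 fold changes lay between -0.56 (Nuf2) and 0.78 (Mad2l1). Of the condensin and cohesin genes, 7 of 9 were called against adult brain and 0 of 9 against F.

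Genes that act before S phase moved in both directions. Ccnd2, a D-type cyclin of G1, was lower in mESC than in adult brain (-2.20) and than in F (-7.25), and higher in embryonic than in adult brain (3.53). Of 7 inhibitors of cyclin-dependent kinases, 3 were called higher and 3 lower in mESC than in adult brain. Cdkn2a was among the higher (7.95, and 6.59 against F) and Cdkn1c, an inhibitor linked to cell cycle exit, among the lower (-1.53, and -6.81 against F), while Cdkn1c was higher in embryonic than in adult brain (5.80). Among regulators of cell cycle promoters, Mybl2, a partner of the MuvB complex, had log2 fold changes of 9.75 against adult brain and 3.64 against F. Foxm1, which acts on mitotic promoters with CHR elements such as those shown, had 5.33 against adult brain and -1.31 against F. Core subunits of the anaphase-promoting complex were the steadiest, with 9 of its 13 listed genes not called between mESC and adult brain.

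TPM and counts can part where a gene's reads sit on short transcripts. The leading transcript was the same in mESC and embryonic brain for 32 members and in all 3 stages for 27. Gins2 was at 112 ± 2.10 TPM (SD, n = 4) in mESC, but 40.6 TPM of this lay on a transcript annotated as processed_transcript and 44.6 TPM on one annotated as retained_intron, and 15.3 TPM on the coding transcript. On that coding transcript embryonic brain had 3.74 TPM. On the gene's counts Gins2 differed by -0.18 (SE 0.43) from F, where TPM gave 112 against 54.1. Pola1 likewise had 128 of its mESC level on a processed_transcript and 40.8 on the coding one, against 2.8 and 7.35 in embryonic brain. Ccne1 was different, with 87.7 of its 98.1 TPM in mESC on a protein-coding transcript. Reads that a coding gene shares with pseudogenes such as Ccnb2-ps (13 TPM in embryonic brain and 4.56 TPM in mESC) may be split between them. Over protein-coding transcripts alone the summed level of the 40 members was 4883 to 5109 TPM in mESC, 3932 in F, 696 to 1206 in the other embryonic libraries and 56.5 to 189 in the adult ones, in the same order of groups.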

How the data were processed

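The members and gene lists were chosen with earlier results of these data known. The authors sequenced strand-specific mRNA libraries (Illumina HiSeq, 33-base single reads) and ran Kallisto 0.43.1 on the GRCm38 cDNA. They deposited estimated counts per transcript, not normalized, and TPM, scaled within each library and summed per gene. Here 107987 of 109282 transcripts were matched to genes through GENCODE release 21, and the counts of a gene's transcripts were added and rounded. Unmatched transcripts held 0.42% to 0.77% of a library's counts. Kif11 counts lack a twin transcript.

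Comparisons used edgeR 4.0.16 in R 4.3.3 (filterByExpr, TMM, quasi-likelihood test, Benjamini-Hochberg adjustment) on all 70 libraries with a group per region or line, each group weighted equally. p-values measure the spread between libraries. In simulated data for mESC against adult brain (17889 genes), 48 of 50 to 50 of 50 changed genes per fold size had an adjusted p under 0.05. So did 8 unchanged ones, and the limit on fold was not applied in this simulation. Its libraries were independent, with a fixed dispersion and the same gene means in all brain groups, and the changed genes were not low in counts. The data differ in each of these, so the figures do not give the performance of the test for members with few adult reads. Alternatives used DESeq2 1.42.0, limma 3.58.1 on log2(TPM + 0.5) or (TPM + 0.1), other filters, scaling and dispersion estimates, a replicate block and leaving out libraries. Named genes were a list by role, the 3 largest and 3 smallest log2 fold changes of each main comparison, members not called and the 5 widest ratios between adult regions; others were named after their values were seen.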

Additional observations from a re-analysis of the deposited data

Results flagged for a closer look

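In groups of 4, the gap of 1 library to the others was wide for 5 of 90 values tested, where chance gives about 1 in 20. Cdk2 was at 3.57 TPM in CENT2 replicate 2 (2.12 to 2.28 in the others). Pcna was at 80.2 TPM in CUL4,5 replicate 3 (70.5 to 71.9) and Rrm2 at 1.53 TPM in CUL4,5 replicate 2 (2.08 to 2.18). Cdc45 was at 1.07 TPM in DMH replicate 1 (1.81 to 1.95), and Ccne2 at 13.3 TPM in FL replicate 3 (7.63 to 8.35).

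Mki67 was lower in mESC than in F (log2 fold change -1.21) and higher than in M (1.50). The difference between F and the mean of the other embryonic regions was itself tested and was 1.97 (SE 0.41, adjusted p = 1.5e-04 in edgeR).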

How the results depend on the processing

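The counts of members called for mESC against adult brain, M, H and THy/PHy, for embryonic against adult brain, F against the other embryonic regions, B6-1 against B6-2 and among adult regions stayed within 1.5 times under every alternative run. For mESC against F, 16 members became 8 with limma on log2(TPM + 0.5), 6 with a pseudocount of 0.1 and 26 with no fold limit, and DESeq2 called 18. Of all genes, limma called 41.9% and 44.9% with these pseudocounts, in the same order, and DESeq2 called 44.1%, in either direction. On these TPM scales the median of all genes for that comparison was -0.21 and -0.30, and with DESeq2 it was 0.18. M against H gave 4 members, 2 with either limma fit, 23 with no fold limit, and 0 to 8 when a library was left out. Of all genes, 10.4% and 11.8% were called there with the limma fits at 0.5 and 0.1, and 31.3% with no fold limit. M against THy/PHy gave 1, 0 with limma at 0.5 or without TMM, 6 with no fold limit, and 0 to 1 when a library was left out. Of all genes, 2.83% were called there with limma at 0.5, 3.81% without TMM and 7.67% with no fold limit. H against THy/PHy gave 1 with no fold limit. ACB gave 16, 6 with limma at 0.5, 26 with no fold limit, and 14 to 18 when a library was left out. Of all genes, limma at 0.5 called 9.16% there. The shares over all genes with a library left out are not given here. Nor are those with no fold limit for mESC against F, H against THy/PHy and ACB. The ratio of summed levels, mESC to adult, was 34 in TPM, 51.5 in CPM, 37.8 over coding transcripts and 33.8 to 34.2 when a library was left out. For embryonic to adult brain it was 11.8 in TPM, 16.8 in CPM, 12.5 over coding transcripts and 6.56 to 12 when a library was left out. Mki67 in mESC against H turned from 0.06 to -0.08 and -0.22 without hindbrain replicate 2 or 3, and was 0.65 without replicate 1. The causes were not tested.

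Replicate numbers did not pair libraries: deviations of same-numbered libraries had a median correlation of 0.01 (669 pairs), against -0.00 for others. With the replicate number as a block and F left out, M against THy/PHy gave 0 members called, mESC against adult brain gave 40, and no other count moved by over 1.5 times. Of all genes, that fit called 4.05% for M against THy/PHy and 64.4% for mESC against adult brain. The sum over coding transcripts, the other dispersion estimate and the comparisons of F and ACB were added after seeing the data. Low adult counts limit the mitotic members most.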
